A study of Mus musculus with 6 samples.

Results

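The BCL2 family decides whether a cell keeps its mitochondria intact. Members such as *Bcl2*, *Bcl2l1*, *Mcl1* and the A1 genes hold the effectors *Bax* and *Bak1* in check, and BH3-only members such as *Bcl2l11* and *Pmaip1* bind the protective members or the effectors and tip the balance toward release of cytochrome c and activation of caspases. A1 is known as a survival gene of activated myeloid cells, and MCL1 as a short-lived protein on which macrophages and their precursors depend. A set of 10 genes of the family was followed in bone marrow-derived macrophages (BMDM) with and without the catalytic subunit of protein phosphatase 2A (PP2Ac). They were chosen by name as survival, effector and BH3-only members, by a rule that uses no measured value. Earlier results of these data were known when they were chosen. They are 10 of the 55453 genes in the count table. All 10 were among the 13680 genes with enough counts to be tested.

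The RNA-Seq held 6 libraries, 3 of PP2Ac KO BMDM and 3 of PP2Ac WT BMDM, both on the C57BL/6 strain. The PP2Ac KO cells come from mice with floxed exon 1 of *Ppp2ca* and cre driven by the *Lyz2* (LysM) promoter, and the WT cells from purchased C57BL/6 mice, for which no cre or floxed allele is described. Mice of the study were 6 to 10 weeks old. The study describes 10 μg/mL cGAMP, the cyclic dinucleotide that activates STING, for 4 hours in both genotypes of its RNA-Seq, whereas the labels give no treatment. No library is described as untreated, so an effect of cGAMP itself could not be measured. Whether the 3 libraries of a genotype come from separate mice is not stated, and the p-values measure the spread between these libraries. The comparison asks how transcript levels differ between PP2Ac KO and WT macrophages, under the STING agonist that the study describes. Effects of PP2Ac loss, of cre and the floxed allele, and of the source of the mice cannot be told apart.

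Library totals were 35257156 to 47390899 counts, so that 3 counts corresponded to 0.0604 to 0.0909 counts per 1000000 (CPM, scaled with TMM factors). These factors were 0.9098 to 0.9375 in KO and 1.049 to 1.097 in WT, which raises CPM in KO relative to WT. Small differences in CPM, and whether libraries overlap in it, thus depend on the scaling. *Ppp2ca* had 33 to 47 counts in the PP2Ac KO libraries and 8279 to 10654 in the WT libraries, as labelled. Summed over 8 macrophage markers, 8623 to 8733 CPM were found in KO and 7279 to 7840 CPM in WT, and 2 of the 8 were called higher. *Lyz2*, 1 of the 8, had only 7.88 to 10.1 CPM in KO and 6.58 to 8.33 CPM in WT. The cause of this low level was not tested. Fibroblast markers (*Col1a1*, *Col1a2*, *Col3a1* and *Dcn*) summed to 22.7 to 33.4 CPM in KO and 74.9 to 118 CPM in WT, and 4 of the 4 were called lower; the part of these cells in the results was not tested. Summed markers of neutrophils, T and NK cells, B cells and dendritic cells each stayed at or below 1.82 CPM in every library, with *Ly6g* and *Cd8a* at 0. In bulk RNA a change in the share of a cell type and a change in RNA per cell cannot be told apart.

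The A1 genes are shown by sequence, because 3 near-identical copies make it uncertain to which of them a read belongs. *Bcl2a1d* (chr9:88723285-88731914, reverse strand), *Bcl2a1a* (chr9:88956900-88962419, forward strand) and *Bcl2a1b* (chr9:89199209-89207827, forward strand) lie near each other on chromosome 9 of GRCm38. Each has an open reading frame of 516 bases before the stop codon. Identity over these bases was 97.9% between *Bcl2a1a* and *Bcl2a1b*, 98.6% between *Bcl2a1a* and *Bcl2a1d*, and 98.8% between *Bcl2a1b* and *Bcl2a1d*. The first 120 coding bases hold 7 of the 12 positions at which the 3 genes are not all alike, written in capitals below.
Bcl2a1a: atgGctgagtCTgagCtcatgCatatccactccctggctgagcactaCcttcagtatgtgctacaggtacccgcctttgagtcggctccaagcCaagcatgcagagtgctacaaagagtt
Bcl2a1b: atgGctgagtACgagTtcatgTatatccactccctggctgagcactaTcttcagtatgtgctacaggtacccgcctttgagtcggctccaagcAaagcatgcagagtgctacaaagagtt
Bcl2a1d: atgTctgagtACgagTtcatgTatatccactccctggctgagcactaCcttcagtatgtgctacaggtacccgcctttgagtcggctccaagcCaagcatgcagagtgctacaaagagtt

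Elsewhere the copies run alike for up to 217 bases. Of all stretches of 50 exonic bases, 69.0% in *Bcl2a1a*, 79.2% in *Bcl2a1b* and 79.5% in *Bcl2a1d* also occur in another gene. How reads that match several genes were counted is not given in the sources used here, so the values of single A1 genes are uncertain. Their sum was tested too, which takes in reads divided among the copies. Reads left out of the counts would be missing from the sum as well, so its level is also uncertain.

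Of the 10 genes, 5 were called higher in PP2Ac KO and 0 lower (*Bcl2a1d*, *Bcl2a1a*, *Bak1*, *Bcl2l1* and *Mcl1*; edgeR, Benjamini-Hochberg adjusted p under 0.05). Across all tested genes 37.1% were called, 18.1% higher and 19.0% lower (2470 and 2604 genes). With upper-quartile scaling these were 2095 and 3356 genes, and the members still 5 higher and 0 lower. The median log2 fold change of the 10 genes was 0.29, beside -0.02 over all tested genes. The near-identical A1 genes enter this median and the counts of members singly, although their values may not be independent. For 7 of the 10 the libraries of the genotypes did not overlap, 6 with KO above WT and 1 with KO below, whereas 50.9% of all tested genes did not overlap. With an added limit of a log2 fold change over 1 and an adjusted p under 0.01, 1 member (*Bcl2a1d*) was called, and 6.35% of all tested genes in either direction. With the replicate number as a block, 7 of the 10 were called higher (*Bax* and *Bcl2l11* added) and 0 lower. In that fit 50.9% of all tested genes were called in either direction. Same-numbered libraries were taken to pair, which the fit without a block leaves out.

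**Figure D1:**
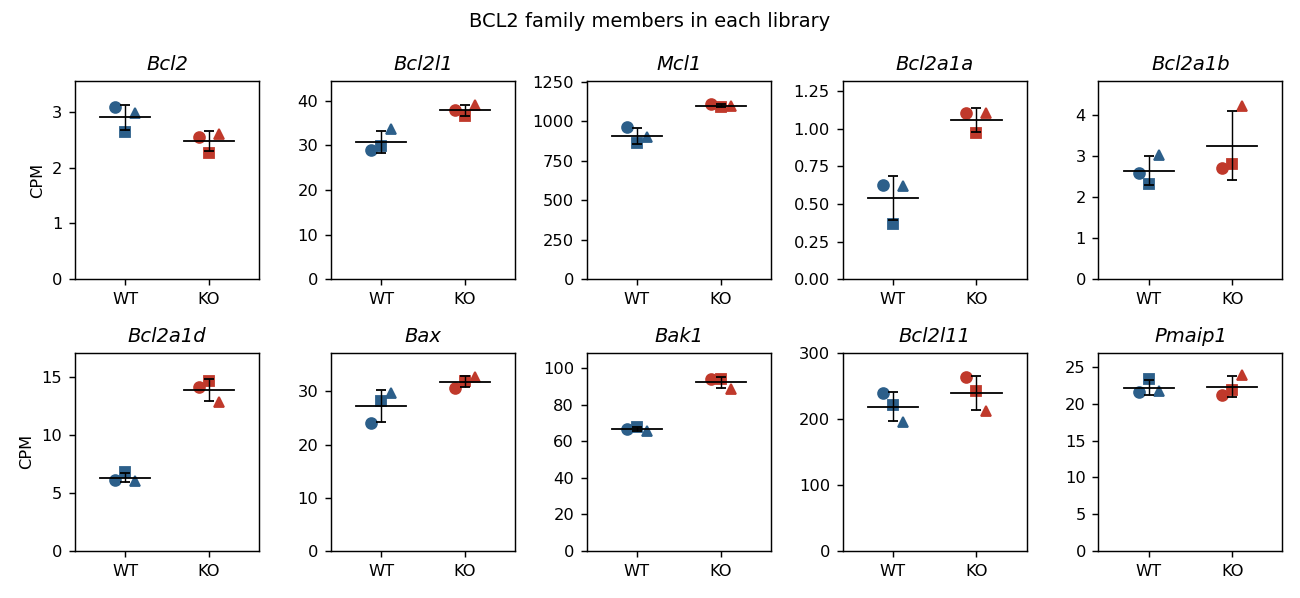
CPM of the 10 genes (vertical axes, each from 0) in the 3 WT (blue) and 3 PP2Ac KO (red) libraries. Circles, squares and triangles are replicates 1, 2 and 3, long bars the means and short bars the SD. The largest fold change is that of *Bcl2a1d*, at 12.9 to 14.7 CPM in KO and 6.08 to 6.78 CPM in WT.

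Among the survival genes, the largest fold change was that of *Bcl2a1d*, an A1 gene whose product binds BH3-only proteins. It had 14.1, 14.7 and 12.9 CPM in KO libraries 1, 2 and 3 (599, 486 and 538 counts) and 6.16, 6.78 and 6.08 CPM in the WT libraries (306, 295 and 255 counts). Every KO library was above every WT library by a wide margin. The means were 13.9 ± 0.932 and 6.34 ± 0.384 CPM (SD, n = 3 each), a 2.19-fold difference (log2 fold change 1.13, SE 0.09, edgeR adjusted p = 6.16e-05).

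*Bcl2a1a*, the scarcest of the 3 A1 genes, had 47, 32 and 46 counts in KO and 31, 16 and 26 in WT, or 1.11, 0.969 and 1.10 against 0.624, 0.368 and 0.620 CPM. Its groups did not overlap in CPM, although KO library 2 and WT library 1 had nearly equal raw counts. The log2 fold change was 0.98 (SE 0.25, edgeR adjusted p = 0.0129), with a 95% interval of 0.42 to 1.53. *Bcl2a1b* was at 2.71, 2.82 and 4.22 CPM in KO and 2.60, 2.32 and 3.03 CPM in WT, and its groups overlapped. It was not called, with a log2 fold change of 0.30 and an interval of -0.14 to 0.74 (edgeR adjusted p = 0.259). Without KO replicate 3, the highest library, the log2 fold change was 0.06. *Gm29094* overlaps 401 of its 817 exonic bases on the same strand and had 0 counts in every library; how reads on both were counted is not given.

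Summed before the fit, the 3 A1 genes had 17.9, 18.5 and 18.2 CPM in the KO libraries and 9.38, 9.47 and 9.73 CPM in the WT libraries. The sums lay closer together within a genotype than *Bcl2a1d* or *Bcl2a1b* alone. They averaged 18.2 ± 0.285 and 9.53 ± 0.182 CPM (SD, n = 3 each), a 1.91-fold difference (log2 fold change 0.93, SE 0.07, edgeR adjusted p = 5.32e-05). *Bcl2a1d* took 70.8% to 79.5% of the A1 counts in KO and 62.5% to 71.6% in WT, ranges that overlap. Its ratio to *Bcl2a1b* was 5.21, 5.23 and 3.06 in KO and 2.37, 2.92 and 2.01 in WT. The log2 ratio was 0.86 higher in KO, with p = 0.1 in a two-sided exact permutation test, the smallest that 3 against 3 libraries can give. Every KO library was above every WT library in this ratio.

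**Figure D2:**
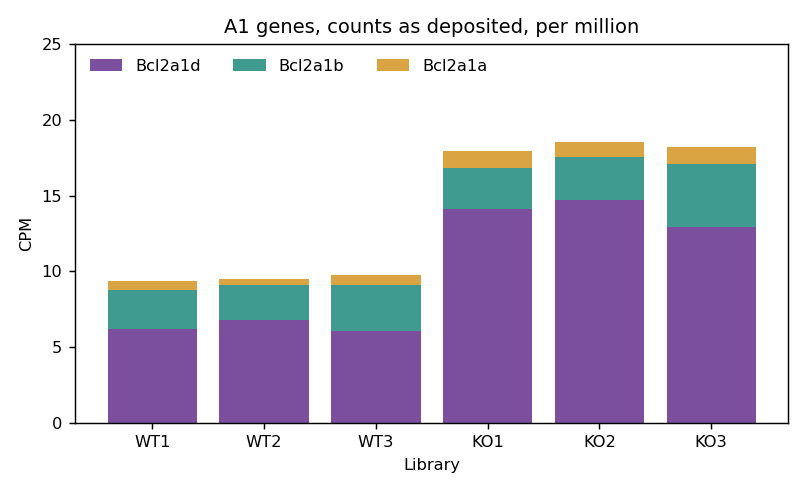
Stacked bars of *Bcl2a1d*, *Bcl2a1b* and *Bcl2a1a* in CPM (vertical axis from 0) in each of the 6 libraries (horizontal axis). Whole bars reach 9.38 to 9.73 CPM in WT and 17.9 to 18.5 CPM in PP2Ac KO, and the lowest segment, *Bcl2a1d*, takes most of each.

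*Mcl1* (chr3:95658788-95663176, forward strand), the gene of the labile survival protein MCL1, was the most abundant member and exceeded 99.3% of tested genes by mean CPM. It had 1108, 1091 and 1095 CPM in the KO libraries and 961, 863 and 899 CPM in the WT libraries. The groups were separate, with less spread in KO than in WT. The difference was small, with a log2 fold change of 0.27 (SE 0.07, 95% interval 0.12 to 0.43, edgeR adjusted p = 0.0120). Without WT replicate 2, the lowest library, it was 0.24 and no longer called (edgeR adjusted p = 0.0635).

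*Bcl2l1* (chr2:152780668-152831728, reverse strand), which encodes BCL-XL, had 38.0, 36.4 and 39.0 CPM in KO and 29.0, 29.8 and 33.5 CPM in WT. All 3 KO libraries were above the highest WT library. The log2 fold change was 0.30 (SE 0.07, 95% interval 0.14 to 0.46, edgeR adjusted p = 0.00983). *Bcl2* (chr1:106538178-106714274, reverse strand), the founding member, was at 2.55, 2.27 and 2.61 CPM in KO and 3.08, 2.64 and 2.98 CPM in WT. It was the sole member whose KO libraries were all below the WT libraries, by a narrow margin. With a log2 fold change of -0.23 and an interval of -0.53 to 0.07, it was not called (edgeR adjusted p = 0.216).

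Of the effectors, which open pores in the outer mitochondrial membrane, *Bak1* (chr17:27019810-27029009, reverse strand) had 94.0, 94.4 and 89.0 CPM in the KO libraries and 66.8, 67.8 and 65.6 CPM in the WT libraries. The gap between genotypes was far larger than the spread within them. *Bak1* was 1.39-fold higher in KO (log2 fold change 0.47, SE 0.06, edgeR adjusted p = 0.000316). *Ggnbp1* overlaps 614 exonic bases of *Bak1* on the opposite strand but had at most 93 counts, against at least 2752 for *Bak1*.

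*Bax* (chr7:45461697-45466898, reverse strand) had 30.6, 32.0 and 32.7 CPM in KO and 24.0, 28.1 and 29.7 CPM in WT. The groups did not overlap, with WT replicate 1 lowest and WT replicate 3 just under the KO libraries. The log2 fold change was 0.22 (95% interval 0.03 to 0.41) and fell short of the threshold (edgeR adjusted p = 0.0660). With the replicate number as a block it was 0.23 and called (edgeR adjusted p = 0.00509), and it was also called with RLE scaling, with DESeq2 and without WT replicate 3. *Gm45808*, with 0 counts in every library, overlaps 192 exonic bases of *Bax* on the same strand.

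Neither of the BH3-only members, *Bcl2l11* and *Pmaip1*, was called in the fit without a block. *Bcl2l11*, which encodes BIM, an activator that binds all survival members, lies at chr2:128126038-128162547 on the forward strand. It had 263, 243 and 213 CPM in KO and 239.7, 222 and 196 CPM in WT. The groups overlapped, and within both of them replicate 1 was highest and replicate 3 lowest. The log2 fold change was 0.13 (95% interval -0.09 to 0.35, edgeR adjusted p = 0.342), and 0.05 without KO replicate 1 and 0.21 without KO replicate 3. Blocked by replicate number, the same log2 fold change was called (edgeR adjusted p = 0.0207).

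*Pmaip1*, a p53 target that encodes NOXA, the BH3-only partner of MCL1 and A1, had 21.3, 21.8 and 23.9 CPM in KO and 21.6, 23.4 and 21.8 CPM in WT. The libraries of the genotypes were intermixed. The log2 fold change was 0.01 with a 95% interval of -0.15 to 0.17 (edgeR adjusted p = 0.948), and its sign changed with the scaling.

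Levels between members were compared per kb of exon, since the exons of the 10 genes cover 817 to 9157 bases. *Mcl1* stood far above the rest, at 321 ± 2.48 CPM per kb in KO and 266 ± 14.5 in WT (SD, n = 3 each). *Bak1*, *Bcl2l11* and *Bax* followed at 38.4 ± 1.26, 29.9 ± 3.19 and 20.2 ± 0.663 CPM per kb in KO, and 27.7 ± 0.440, 27.3 ± 2.71 and 17.3 ± 1.88 in WT. *Bcl2* was lowest in both genotypes.

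The order was nearly shared by the genotypes. In WT, *Pmaip1* (8.14 ± 0.355 CPM per kb), *Bcl2a1d* (7.35 ± 0.445) and *Bcl2l1* (6.71 ± 0.529) followed *Bax*, and the libraries of *Bcl2a1d* overlapped those of *Bcl2l1*. In KO, *Bcl2a1d* stood at 16.1 ± 1.08 CPM per kb, above *Bcl2l1* at 8.24 ± 0.279 and *Pmaip1* at 8.18 ± 0.516, which overlapped each other. *Bak1* and *Bcl2l11* overlapped in WT and not in KO, and *Bcl2l11* was above *Bak1* in both when the longest transcript set the length. That length also raised *Bcl2l1* to 11.98 CPM per kb in WT, above *Pmaip1* and *Bcl2a1d*, and to 14.72 in KO, where its libraries overlapped those of *Bcl2a1d*. *Bcl2a1b* and *Bcl2a1a* came next, ahead of *Bcl2*. The places of the A1 genes in this order are uncertain, because how their shared reads were counted is not given.

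**Figure D3:**
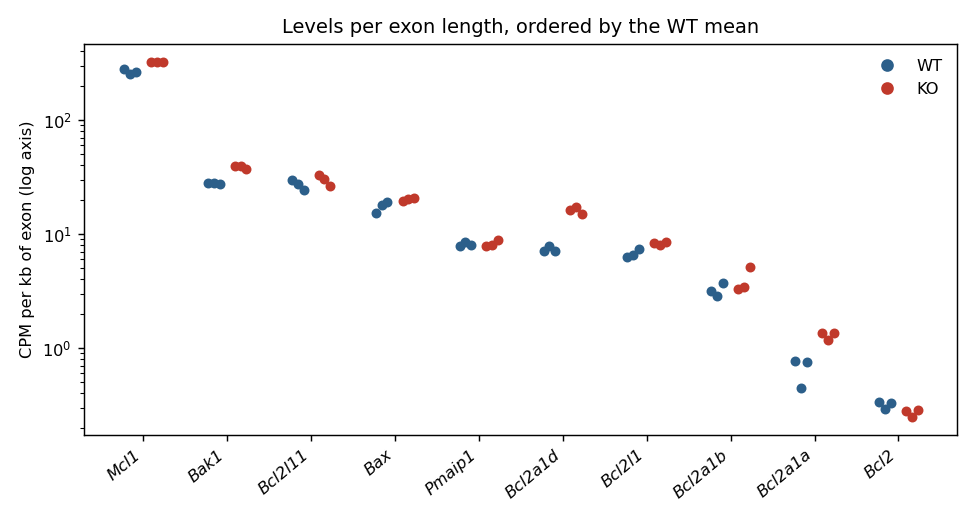
CPM per kb of exon (log axis) for the 10 genes, ordered along the horizontal axis by the WT mean, with 1 point for each WT (blue) and PP2Ac KO (red) library. *Mcl1* is highest and *Bcl2* lowest in both genotypes, and *Bcl2a1d* lies at 16.1 CPM per kb in KO and 7.35 in WT.

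Added up per kb, the 6 survival genes came to 354, 349 and 351 CPM per kb in KO and 299, 271 and 282 in WT. The 4 pro-apoptotic genes came to 99.1, 97.8 and 92.9 CPM per kb in KO and 80.7, 82.1 and 78.6 in WT. Both sums were higher in every KO library. They cover transcripts of these genes only, not protein, and leave out other family genes such as *Bid*, *Bbc3* and *Bmf*. The ratio of the pro-apoptotic to the survival sum was 0.280, 0.280 and 0.265 in KO and 0.270, 0.304 and 0.279 in WT, and its libraries overlapped (difference -0.00892, two-sided exact permutation p = 0.6). *Mcl1* made up 91.4% to 91.6% of the survival sum in KO and 93.2% to 94.1% in WT, so the sum follows *Mcl1* closely. If A1 reads were left out of the counts, the survival sum is too low, and the ratio and the share of *Mcl1* are too high.

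Among the 16 other BCL2 family genes listed, 10 were tested, of which 2 were called higher and 4 lower in KO (median log2 fold change -0.20). Over all tested genes 18.1% were called higher and 19.0% lower. *Bid*, whose product carries the death-receptor signal to mitochondria, had 59.7 CPM in KO and 37.4 in WT (log2 fold change 0.67, edgeR adjusted p = 0.000116). *Bbc3*, the p53 target PUMA, had 47.4 and 40.2 CPM (0.24, edgeR adjusted p = 0.0353), a call lost in 5 of 13 alternative fits.

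The 4 called lower were *Bmf*, *Bnip3l*, *Bnip3* and the effector homologue *Bok*. *Bmf*, a BH3-only gene tied to the cytoskeleton, had 11.5 CPM in KO and 20.9 in WT (log2 fold change -0.86, edgeR adjusted p = 0.000453). *Bnip3l* and *Bnip3*, which act in mitophagy, had 110 against 147 CPM and 13.7 against 17.0 CPM (log2 fold changes -0.42 and -0.31, edgeR adjusted p = 0.00158 and 0.0139). *Bok* had 4 to 13 counts in KO and 19 to 22 in WT (-1.26, edgeR adjusted p = 0.0282), a call lost in 5 of 12 alternative fits. *Bcl2l2*, *Bad*, *Bcl2l12* and *Bcl2l13* were not called. *Bcl2l10*, *Hrk*, *Bcl2a1c*, *Bik*, *Bcl2l14* and *Bcl2l15* had 0 to 7 counts and were not tested.

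**Figure D4:**
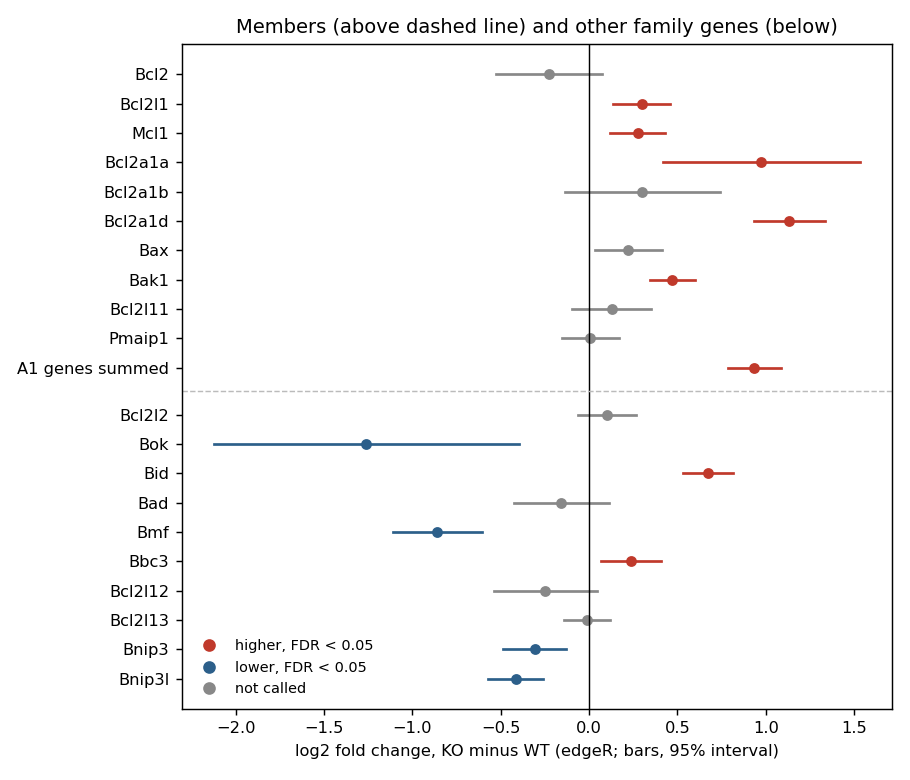
Log2 fold change (PP2Ac KO minus WT, horizontal axis) with 95% intervals from edgeR for the 10 genes and the A1 sum (above the dashed line) and for 10 other BCL2 family genes (below). Red is called higher, blue called lower and grey not called; *Bcl2a1d* lies at 1.13, *Bak1* at 0.47 and *Bmf* at -0.86.

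Genes that act around the family were counted in the same fit, in which 18.1% of all tested genes were called higher and 19.0% lower. Of 26 apoptosome, caspase and inhibitor genes tested, 11 were called higher and 6 lower (median log2 fold change 0.08). The inhibitors *Birc3* and *Birc2* were higher (0.92 and 0.64), as were *Apaf1* (0.84) and *Cycs* (0.80), which encode the apoptosome scaffold and cytochrome c. *Birc5* and *Naip1* were lowest, both at -1.29. *Birc5*, or survivin, also acts in cell division. Of 15 genes of MCL1 turnover and BCL2 family modification, 7 were called higher and 1 lower (median 0.26). *March5*, a mitochondrial ubiquitin ligase, had 352 ± 21.6 CPM in KO and 166 ± 29.2 in WT (log2 fold change 1.09, edgeR adjusted p = 0.000196), whereas the ligase gene *Fbxw7* differed by 0.37.

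Transcription factors known to act on the members were called higher in 15 of 24 and lower in 2 (median log2 fold change 0.41). The shares over all tested genes, for this list and the next, were 18.1% higher and 19.0% lower. Those called higher included the NF-κB genes *Nfkb1* (0.75) and *Relb* (0.69), *Ddit3* (0.71) and *Egr1* (0.67). *E2f1* (-0.34) and *Foxo3* (-0.21) were lower, calls kept in 9 and 7 of 13 alternative fits. Of 18 p53 target genes, a list that shares *Bax*, *Pmaip1*, *Apaf1* and *Bbc3* with the lists above, 7 were called higher and 2 lower (median 0.23). *Cdkn1a*, the cell-cycle inhibitor p21, was highest at 1.09, and *Sesn1*, a stress-response gene, lowest at -1.12. The count called higher was 11 when blocked by replicate number, and 4 with upper-quartile scaling or without KO replicate 2. Over all tested genes the counts called higher were 3343, 2095 and 2012 in these fits, beside 2470 in the main fit.

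**Figure D5:**
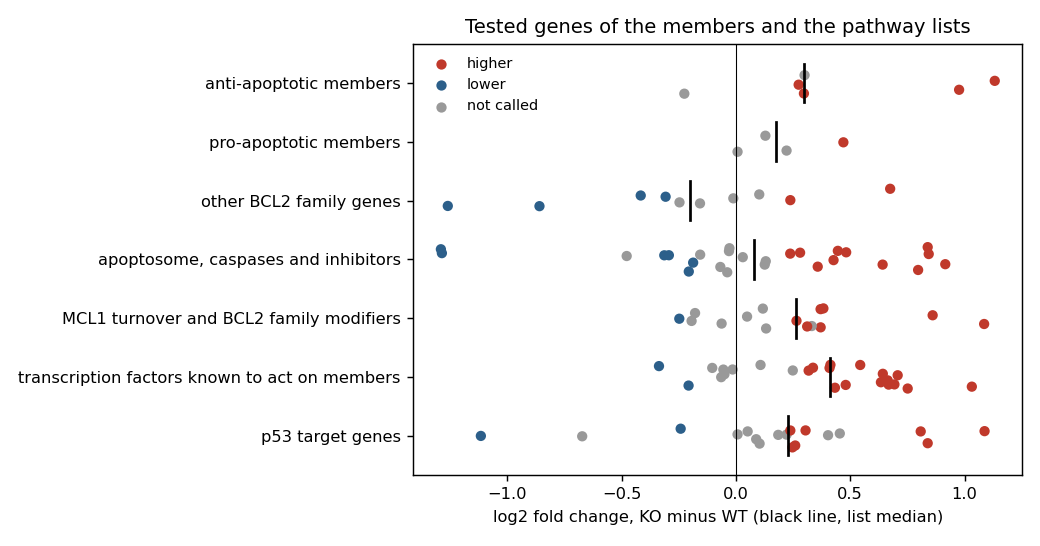
Log2 fold changes (PP2Ac KO minus WT, horizontal axis) of every tested gene of the survival and pro-apoptotic members and of 5 lists around them (rows), coloured by call, with a black line at each list's median. Medians run from -0.20 for the other BCL2 family genes to 0.41 for the transcription factors.

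Promoters were searched for kB, STAT and interferon response site forms only, and not for sites of the other transcription factors listed. RefSeq sequences (GRCm38.p6, 250 bases before and 50 after the start) of 9 of the 10 genes were searched, as 12 windows of 300 bases. *Pmaip1* was left out of the search. The kB form GGGNNTTCC, the STAT form TTCNNNGAA and the interferon response core GAAANNGAA were matched on both strands; they occur in 5.82%, 8.30% and 8.56% of 32851 promoters. A match was found in 1 of the 3 windows of *Bcl2l1*, to the kB form, and in no other window. It starts 122 bases before an annotated start that lies inside the gene, downstream of its outermost start, and is in capitals in the 100 bases at chr2:152830785-152830884, read on the reverse strand. A match describes the letters only, and the windows without one say nothing of the factors.
Bcl2l1: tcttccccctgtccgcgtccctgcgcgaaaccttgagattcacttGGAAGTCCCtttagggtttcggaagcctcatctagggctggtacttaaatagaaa

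Genes with the pattern most like that of a member over the 6 libraries were found by the root mean square difference of centred log2 CPM. For the A1 sum these were *Nfkbid* (0.0507), *Mmp14* (0.0523) and *Gm17435* (0.0620). *Bcl2a1d* was nearest to *Pilra* (0.0440), *Mcl1* to *Exoc4* (0.0149) and *Bak1* to *Gpr108* (0.0243).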

How the data were processed

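The authors deposited whole-number counts per gene, not normalized, for 6 poly(A) libraries from a directional kit. The submitters' processing notes name fastp 0.20.0, kallisto 0.46.1, STAR 2.7.1a, HTSeq 0.11.2, edgeR 3.34.0, limma 3.48.3 and mm10, without their roles. The annotation, strand setting and treatment of multiply matching reads are not given in the sources used here. Reads of near-identical genes could thus have been lost or divided.

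Genotype and replicate number came from the labels. Counts were tested in R 4.3.3 with edgeR 4.0.16 (filterByExpr with a minimum count of 10 and a total of 15, TMM, glmQLFit and glmQLFTest on genotype, Benjamini-Hochberg over 13680 genes, called under 0.05). CPM use TMM factors, and errors are SD over 3 libraries. Differences are KO minus WT. Floors are 3 counts and cover counting error only. Exon lengths and coordinates are from GENCODE M21 (GRCm38), which holds 98.4% of the 55453 symbols.

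Replicate numbers are shared by the genotypes in the labels, though what they share is not stated. Deviations of same-numbered libraries from their group means correlated across genes at 0.289, 0.148 and 0.337, so the numbers were taken to pair the libraries. The main fit and the permutation tests did not use this pairing. The fit blocked by replicate number did, and its calls are given where they differ for a member. Replicates of a genotype differed by 8.61 to 41.8 times their counting variance, so none was the same library deposited again; separate libraries of 1 RNA sample or mouse would also differ by more than that.

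The fit was repeated with scaling by RLE or the upper quartile, with a blocked design by replicate, without the filter or with 10 counts required of every library, and with DESeq2 1.42.0 and limma-voom (limma 3.58.1). Other alternatives were stricter thresholds, each library left out in turn, summed A1 genes, and transcript length in place of exon length. An A1 sum with *Bcl2a1c* and *Gm29094* was chosen after seeing the data. The members and lists were chosen with earlier results of these data known. Named were all members, the other BCL2 family genes, up to 5 called genes with the largest change in each direction per list, and the nearest genes by pattern. Some genes under this rule are not reported here. The fit was tested on simulated data, where the share of changed genes found was just under a limit set beforehand, and the limit was then lowered.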

Additional observations from a re-analysis of the deposited data

How the results depend on the processing

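The A1 sum was called higher in every alternative (log2 fold change 0.87 to 0.96, and 0.94 with *Bcl2a1c* and *Gm29094*). *Bax* was called with RLE scaling (0.24, adjusted p = 0.0440), DESeq2 (0.24, adjusted p = 0.0495) and the replicate block (0.23), and was 0.29 without WT replicate 3; leaving out each library gave 0.14 to 0.29. *Bcl2l11* was called only with the replicate block (0.13). *Mcl1* ranged from 0.24 to 0.32 when each library was left out, with the lowest value, without WT replicate 2, not called. Stricter thresholds left 1 member.

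Of the 4 pro-apoptotic members, 2 were called higher with RLE scaling or DESeq2, 3 with the replicate block and 1 to 2 with a library left out. Over all tested genes, 2653 were called higher with RLE scaling, 2597 with DESeq2 and 3343 with the replicate block, beside 2470 in the main fit. Called lower were 2425, 2280 and 3615, beside 2604. Upper-quartile scaling called 2095 higher and 3356 lower. Leaving out a library gave 1974 to 2721 higher and 1873 to 2720 lower. Upper-quartile scaling called higher 1 of the other BCL2 family genes and 4 p53 targets, and lower 3 genes of MCL1 turnover. The replicate block called 11 p53 targets higher and 3 turnover genes lower; it changed no other member's call. RLE scaling and DESeq2 each called 1 transcription factor lower. With each library left out, genes called lower numbered 0 to 2 for MCL1 turnover, 3 to 7 for the apoptosome list, 2 to 5 for the other BCL2 family genes, 1 to 2 for p53 targets and 0 to 1 for transcription factors, and genes called higher 1 to 2 for the other BCL2 family genes and 4 to 7 for p53 targets. The cause of these changes was not tested, and leaving a library out also lowers the number of libraries. With transcript length the survival sum was 358 CPM per kb in KO, the pro-apoptotic sum 123 in KO and 104.5 in WT, and the ratio 0.345 and 0.362. *Bcl2a1a* rests on 16 to 47 counts a library.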
